A study of Mus musculus with 6 samples.

Results

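The genes described here are glycolytic enzymes and a glucose transporter of male germ cells, with general counterparts: Slc2a3, Hk1, Aldoart1, Aldoart2, Aldoa, Tpi1, Gapdhs, Gapdh, Eno4 and Ldhc. They were taken by gene symbol from a table of 54532 mouse genes. All 10 symbols were found, and because Aldoa names 2 gene identifiers they made up 11 rows. The study set testes of wild-type mice (WT, 3 libraries) beside testes of mice with a knockout of 1700052I22Rik (KO, 3 libraries), to ask how this long non-coding RNA acts in spermatogenesis. The sources used here do not give strain, age or the deleted part of the gene. They also do not say that each library is a separate animal, and p-values then measure only how far these libraries scatter, which may be technical.

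Glycolysis splits glucose into pyruvate in the cytosol and yields ATP without oxygen. In sperm much of the pathway is fixed to the fibrous sheath of the flagellum, far from the mitochondria of the midpiece, and it supplies ATP for swimming. Several of its steps use isoenzymes made only or mainly in spermatocytes and spermatids. Some of these, such as Gapdhs and Ldhc, arose by gene duplication, and others, such as Aldoart1, Aldoart2 and Pgk2, are retrogenes, that is, copies of a processed mRNA. Male mice without Gapdhs, Ldhc or Eno4 are known to have poorly motile sperm.

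Counts of these genes depend on how far their sequences can be told apart, so the isoenzymes are shown first beside their general counterparts. The stretches are from the coding sequence of the principal GENCODE M21 transcript (mm10). Each reads 5′ to 3′ along the transcript, and capitals mark bases that differ from the general gene named first in its set. The Gapdh stretch is the 90 bases of its coding sequence that occur whole in the most other genes, 43 of them, and it is set against the aligned bases of Gapdhs, of which 33 differ.
Gapdh, coding bases 753 to 842: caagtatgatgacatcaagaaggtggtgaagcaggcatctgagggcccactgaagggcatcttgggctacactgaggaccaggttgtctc
Gapdhs, coding bases 1065 to 1154: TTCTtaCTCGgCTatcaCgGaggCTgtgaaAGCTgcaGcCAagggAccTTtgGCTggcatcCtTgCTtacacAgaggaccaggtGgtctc
The lactate dehydrogenase stretch is the first 90 coding bases, in which Ldhc differs from Ldha at 28.
Ldha, coding bases 1 to 90: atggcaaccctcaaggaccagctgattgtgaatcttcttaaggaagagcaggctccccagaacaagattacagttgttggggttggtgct
Ldhc, coding bases 1 to 90: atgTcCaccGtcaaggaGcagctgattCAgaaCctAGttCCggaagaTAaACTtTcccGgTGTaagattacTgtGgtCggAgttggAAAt
The aldolase stretch is centred on the longest run that Aldoa shares with Aldoart1, 86 bases, so short reads from within it cannot be told apart between them.
Aldoa, coding bases 497 to 586: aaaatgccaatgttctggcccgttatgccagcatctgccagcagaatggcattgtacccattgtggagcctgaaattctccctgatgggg
Aldoart1, coding bases 497 to 586: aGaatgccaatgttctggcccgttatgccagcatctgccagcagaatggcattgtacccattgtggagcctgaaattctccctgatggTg
Aldoart2, coding bases 497 to 586: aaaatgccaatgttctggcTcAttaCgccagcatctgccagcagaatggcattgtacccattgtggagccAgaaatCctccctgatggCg

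Over whole coding sequences, Gapdhs was 71.6% identical to Gapdh and Ldhc 73.7% identical to Ldha, with no identical run above 20 bases in either pair. The aldolase retrogenes are closer to their parent gene, at 94.2% for Aldoart1 and 91.7% for Aldoart2. Eno4, the most diverged, was 55.5% identical to Eno1. The share of 50-base coding stretches that also occur in another annotated gene differed between germ-cell and general genes, with Slc2a1 as an exception. It was 0% for Gapdhs, Ldhc, Eno4, Pgk2, Slc2a3 and Hk1, 0.479% for Aldoart2 and 11.1% for Aldoart1. It was 13.7% for Tpi1, 19.5% for Aldoa, 31.0% for Ldha, 35.6% for Ldhb and 83.3% for Eno1, and 100% for both Gapdh and Pgk1. Slc2a1, a general gene, also had 0%. Longer stretches were shared less. With 100 bases the share was 0% for Aldoa, Aldoart1 and Aldoart2, 1.38% for Tpi1 and 2.45% for Ldha. It was 11.7% for Ldhb and 69.3% for Eno1, and still 100% for Gapdh and Pgk1. For Gapdh the stretches lie in 217 other genes. Of these, 216 are among the counted genes, and 202 are processed pseudogenes.

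**Figure D1:**
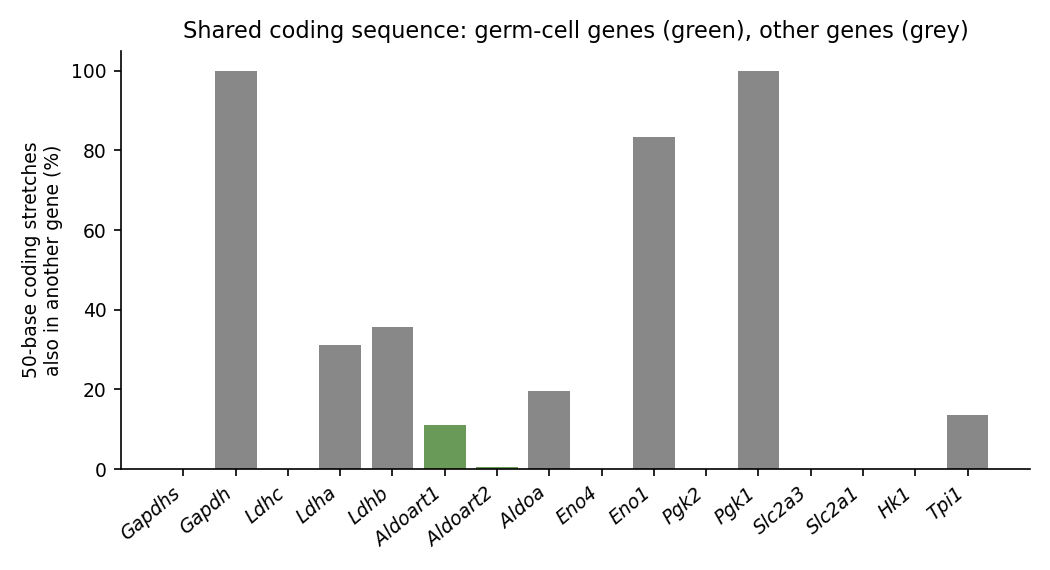
Bars give the percentage of 50-base stretches of each gene's coding sequence that also occur in the annotated transcripts of another gene, with germ-cell genes in green and other genes in grey. Gapdh and Pgk1 stand at 100%, Eno1 at 83.3%, and the germ-cell genes at 0% apart from Aldoart1 at 11.1% and Aldoart2 at 0.479%.

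The libraries were of even depth, with 17635045 to 18117593 counts each. The deleted transcript checked the labels: 1700052I22Rik had 185, 175 and 218 counts in WT and 0, 0 and 0 in KO. CPM are counts scaled to a common library size with TMM factors, and errors are SDs over 3 libraries unless said otherwise. The markers of testis cell types were present. Summed over 9 genes, the markers of elongating spermatids reached 20512 to 22816 CPM in WT and 20167 to 23470 in KO. WT 1 and KO 2 stood apart in Leydig cell markers, with sums over 8 genes of 264 and 296 CPM against 491 to 927 in the other 4. In bulk tissue, fewer cells of a type and less RNA per cell cannot be told apart.

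The 11 rows held 1.002% to 1.06% of the counts of each library, and Ldhc alone 0.382% to 0.438%, which made it the second most abundant gene of the table by mean CPM. Levels of different genes were compared per length, as CPM divided by the deposited gene length in kilobases, over all 6 libraries. Ldhc, the lactate dehydrogenase of germ cells, stood highest with 2566 ± 135 CPM per kb (SD, n = 6), followed by Gapdhs, the germ-cell glyceraldehyde-3-phosphate dehydrogenase, with 907 ± 24.8. Aldoart2 at 247 ± 8.09, Slc2a3 at 220 ± 21.1 and Hk1 at 204 ± 4.32 came next, and in this order each of these overlapped its neighbour's range over libraries. Tpi1 had 155 ± 7.02 and Aldoa 126 ± 6.94. Aldoart1 had 60.6 ± 3.97 and Eno4 28.7 ± 1.25. The upstream Aldoa identifier had 17.4 ± 2.14, and Gapdh was last with 0.119 ± 0.0710. Apart from those of Aldoart2 with Slc2a3 and Slc2a3 with Hk1, no neighbouring ranges in this order overlapped.

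This order depends on what is taken as a gene's length. The deposited length counts more than the coding part, 8532 bases for Hk1 and 7245 for Slc2a3, whose coding sequences have 2835 and 1479. Per kilobase of coding sequence Ldhc was again first, with 4071 ± 214 CPM (SD, n = 6), and Gapdhs (1111 ± 30.4) and Slc2a3 (1076 ± 103) followed with overlapping ranges. Hk1 came next at 613 ± 13.01, then Tpi1 at 475 ± 21.5, Aldoart2 at 374 ± 12.3 and Aldoa at 337 ± 18.5, with the ranges of the last pair overlapping. On either scale Gapdhs stood above both aldolase retrogenes and Eno4 below them.

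**Figure D2:**
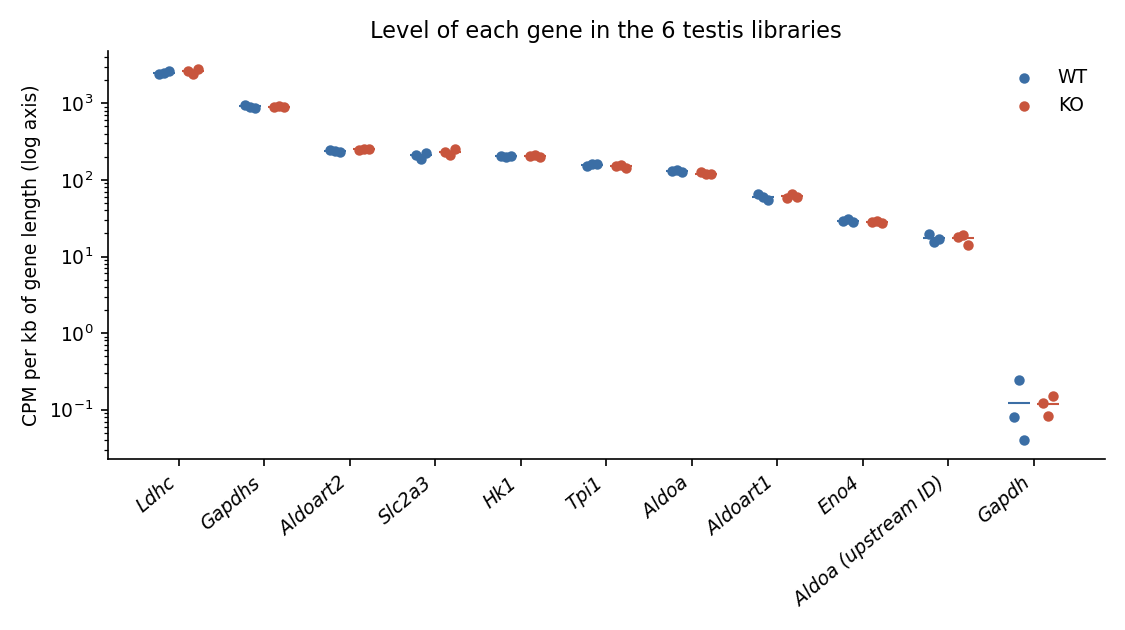
Each point is 1 library (WT blue, KO red), short lines are group means, and the vertical axis is CPM per kilobase of deposited gene length on a log scale. Ldhc stands near 2566 and Gapdhs near 907, and Gapdh lies at 0.119, with WT and KO points overlapping for each gene except Aldoa.

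The comparison of germ-cell with general isoenzymes asked which form dominated each step. Counts per kilobase were higher for the germ-cell form at 5 of the 6 steps compared and lower at 1, the enolase step, in 6 of 6 libraries each time. A two-sided exact sign permutation test over the 6 libraries gave p = 0.03125 for each step, the smallest it can give, and 0.03125 after Benjamini-Hochberg adjustment over the 6 steps. Each library holds the same genes, lengths and shared stretches, so a bias from these has the same sign in all 6. The test shows only that the sign repeats between libraries, and cannot decide which form dominated a step. For Gapdhs over Gapdh the direction rests on 3 to 18 Gapdh counts in a library and on a gene whose coding stretches are all shared, so this step carries no weight in that tally, and the same sharing holds for Pgk1.

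At glucose uptake, Slc2a3, which encodes the transporter GLUT3, stood 96.9-fold above Slc2a1, which encodes GLUT1, the transporter of most other cells (range over libraries 84.0 to 122). Per coding length this was 200-fold. Both genes have coding sequences with no shared 50-base stretch. Slc2a1 was the scarce one, with a mean of 8.22 ± 0.640 CPM over the WT and 7.66 ± 0.546 over the KO libraries (SD, n = 3). This ratio leaves out other transporter genes of the family. Slc2a5 had 194 ± 9.79 CPM per kb (SD, n = 6; range 180 to 207), which overlapped the range of Slc2a3 (189 to 251). Slc2a8 had 18.2 ± 1.24, also above Slc2a1, whereas Slc2a2 and Slc2a4 lay below Slc2a1.

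At the aldolase step, which splits fructose bisphosphate, Aldoart1 and Aldoart2 together stood 2.14-fold above Aldoa (range 1.98 to 2.37), and 1.32-fold above it per coding length. Per deposited length, Aldoart2 alone was 1.72-fold above Aldoa, whereas Aldoart1 alone was below it, at 0.421 of its level. Per coding length this lead of Aldoart2 was not clear. It had 374 ± 12.3 CPM per kb (SD, n = 6), and the main Aldoa identifier 337 ± 18.5, with overlapping ranges. The upstream Aldoa identifier had a further 33.5 ± 4.13. Both retrogenes are intronless: Aldoart1 spans 2052 bases at chr4:72850583-72852634 on the minus strand and Aldoart2 spans 1658 bases at chr12:55565239-55566896 on the plus strand, each equal to its exonic length. Aldoa is at chr7:126795234-126800751 on the minus strand. The second identifier that carries its name lies just upstream at chr7:126800790-126809108 and shares no 50-base coding stretch with it, and both were summed for Aldoa in this ratio. Fam57b, on the other strand, overlaps 3084 bases of Aldoa and the whole 8319 bases of the upstream identifier, with a mean of 66 counts. The upstream identifier had only 204 to 285 counts in a library, and the part of Fam57b in them was not tested.

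At the step of glyceraldehyde-3-phosphate, Gapdhs had 25558 to 27649 counts in a library and Gapdh, which is widely used as a reference gene, had 3 to 18. The Gapdh counts were 6, 18 and 3 in WT and 9, 6 and 11 in KO. The resulting ratio per kilobase, 8839-fold with a range of 3712 to 22064, rests on these few reads. As given above, all 50-base coding stretches of Gapdh also occur in other genes. The 30 genes that share at least 50% of its 50-base stretches held 65 to 114 counts between them in a library, and together with them Gapdh reached 71 to 132 counts and the Gapdhs ratio per kilobase was 185-fold. All 216 genes that share any such stretch held 4534 to 5251 counts in a library, of which Peli2 alone had 2010 to 2602. Peli2 is a protein-coding gene that holds only 8.84% of the 50-base stretches of Gapdh. These summed counts are therefore no measure of misplaced Gapdh reads. The sources used here do not say how reads with several matches were treated, and its part in these values was not tested. Iffo1, on the other strand, overlaps 68 bases of Gapdh with a mean of 1082 counts. Reads from these bases cannot be assigned with certainty if strand was not used. The level of Gapdh mRNA in these testes can therefore not be read from this row.

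**Figure D3:**
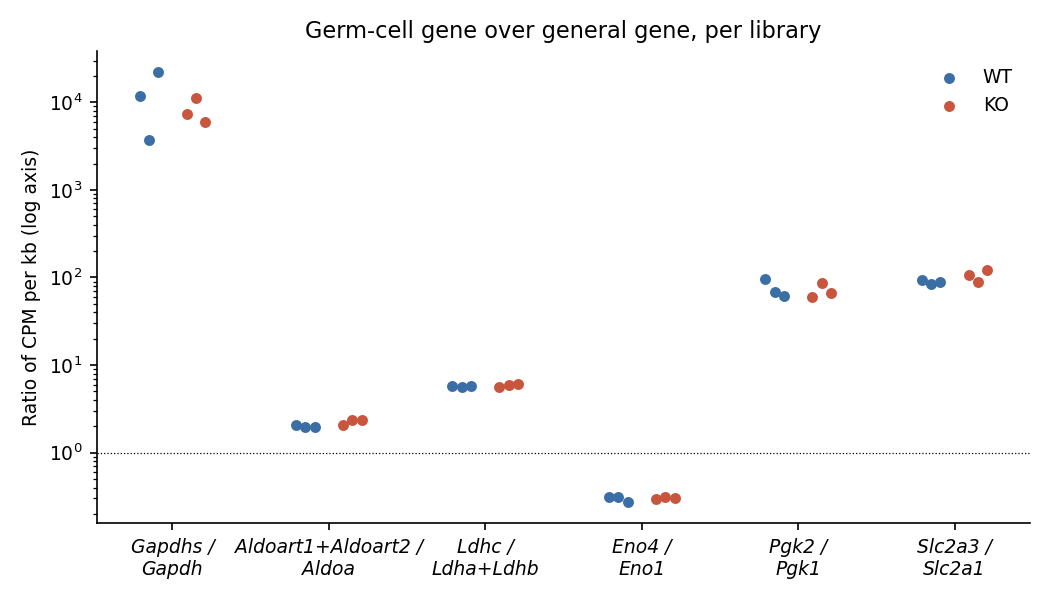
Each point is the ratio of CPM per kilobase of a germ-cell gene to its general counterpart in 1 library (WT blue, KO red), on a log axis with a dotted line at 1. Eno4 over Eno1 lies near 0.301, the aldolase and lactate dehydrogenase pairs near 2.14 and 5.80, and the Gapdhs pair, which rests on 3 to 18 Gapdh counts, is widely spread.

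Phosphoglycerate kinase gave the same kind of contrast. Pgk2, an autosomal retrogene used by germ cells when the X chromosome is silenced, averaged 924 ± 86.6 CPM over the WT and 947 ± 28.2 over the KO libraries (SD, n = 3). Its X-linked parent Pgk1 averaged 17.4 ± 2.75 and 18.7 ± 2.85. The ratio per kilobase was 72.0-fold (range 60.6 to 95.4). As for Gapdh, all 50-base coding stretches of Pgk1 occur in other genes, here 5 of them, and their part in its low count was not tested.

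Enolase was the step at which the general gene was the higher one. Eno4, an enolase needed for the structure of the sperm flagellum, had 0.301 of the level of Eno1 per kilobase (range 0.276 to 0.316) and 0.101 of it per coding length. Of the coding stretches of Eno1 83.3% are shared, against 0% for Eno4, and the part of this in the ratio was not tested. At the lactate dehydrogenase step Ldhc stood 5.80-fold above Ldha and Ldhb together (range 5.62 to 6.003), or 3.02-fold per coding length. It made up 84.9% to 85.7% of the 3 genes per kilobase. Ldha and Ldhc are neighbours, with 5575 bases between them on chromosome 7. Ldha, which encodes the muscle form, averaged 1204 ± 43.0 CPM over the WT and 1269 ± 74.7 over the KO libraries. Ldhb, which encodes the heart form, averaged 113 ± 11.1 and 103 ± 9.88 (SD, n = 3).

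The comparison of KO with WT asked whether these genes differed without the transcript. Of the 10 rows tested, 0 were called (quasi-likelihood fit in edgeR, Benjamini-Hochberg adjusted over 19320 genes, threshold 0.05). The background is close to 0 as well: 0.00518% of all tested genes were called, the 1 gene being 1700052I22Rik itself. No member had an unadjusted p under 0.05, against 4.63% of all tested genes. Their log2 fold changes lay between -0.12 and 0.14, with a median of -0.0031 against -0.0025 for all genes tested. Every tested row had a 95% interval within 1.5-fold in either direction, against 61.5% of all tested genes. Intervals are narrower for genes with more counts, and most of these rows are abundant. These shares therefore do not compare genes of like level. Gapdh did not pass the low-count filter and was not tested.

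Slc2a3 gave 1524, 1371 and 1642 CPM in the WT libraries, against 1669, 1528 and 1817 in the KO libraries. The KO libraries tended to the higher values, with KO 3 highest and WT 2 lowest, but the groups overlapped. Its log2 fold change of 0.14 (95% interval -0.02 to 0.31) was the largest rise among these genes and did not pass (edgeR, adjusted p = 0.965). Its gene, at chr6:122727809-122801640 on the minus strand, varied most between libraries among the abundant members, with a coefficient of variation of 9.59%.

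Hk1 encodes hexokinase, which traps glucose as its phosphate, and germ cells make it from transcripts with their own first exons. Counts per gene cannot separate these from the general transcripts. It gave 1745, 1699 and 1759 CPM in the WT libraries, against 1738, 1788 and 1690 in the KO libraries, the steadiest member with a coefficient of variation of 2.12%. The groups overlapped fully, and the log2 fold change was 0.0039 (95% interval -0.11 to 0.12; edgeR, adjusted p = 0.995). The gene lies at chr10:62268855-62379908 on the minus strand.

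Aldoa was the member whose groups did not overlap. It gave 378, 396 and 375 CPM in the WT libraries, against 370, 344 and 344 in the KO libraries, so all KO libraries lay below all WT libraries, though KO 1 by little. The log2 fold change was -0.12 (95% interval -0.26 to 0.03), and the change did not pass (edgeR, adjusted p = 0.965). Permuting the libraries exactly, two-sided, gave p = 0.1 in a permutation test, the smallest that 3 against 3 allows. Groups that do not overlap were seen for 9.31% of all tested genes, and for 1 of the 10 tested here. The upstream identifier gave 15.8, 12.4 and 13.7 CPM in the WT libraries, against 14.5, 15.4 and 11.4 in the KO libraries, with overlapping groups and a log2 fold change of -0.02 (95% interval -0.33 to 0.30).

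For the retrogenes the difference did not pass either. Aldoart2 gave 411, 398 and 389 CPM in the WT libraries, against 410, 425 and 420 in the KO libraries, a log2 fold change of 0.07 (95% interval -0.07 to 0.20; edgeR, adjusted p = 0.968). KO 1 fell below WT 1, so the groups overlapped. Aldoart1 gave 133, 124 and 114 CPM in the WT libraries, against 118, 134 and 124 in the KO libraries, with a log2 fold change of 0.02 (95% interval -0.16 to 0.20). Aldoart2 shares its chromosome, 12, with 1700052I22Rik, which lies at chr12:80923432-80924449.

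Tpi1 encodes triosephosphate isomerase, which interconverts the products of aldolase. It gave 414, 448 and 447 CPM in the WT libraries, against 418, 431 and 399 in the KO libraries, with a log2 fold change of -0.07 (95% interval -0.21 to 0.07). The gene is at chr6:124810586-124814296 on the minus strand and overlaps 34 bases of Spsb2 on the other strand, so a few reads cannot be assigned with certainty if strand was not used. For Gapdhs, at chr7:30729775-30743681 on the minus strand, the WT libraries gave 1531, 1448 and 1417 CPM, against 1464, 1470 and 1432 in the KO libraries. All KO libraries fell within the WT range, with a log2 fold change of -0.01 (95% interval -0.13 to 0.11; edgeR, adjusted p = 0.992). The antisense gene Tmem147os spans it, with a mean of 72.5 counts, far below the counts of Gapdhs. Gapdh itself averaged 0.500 ± 0.443 CPM over the WT and 0.487 ± 0.139 over the KO libraries (SD, n = 3), and an exact permutation test gave p = 1.

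Eno4, at chr19:58943425-58971421 on the plus strand, gave 74.2, 79.4 and 72.4 CPM in the WT libraries, against 73.6, 74.1 and 69.6 in the KO libraries. The groups overlapped, and the log2 fold change was -0.06 (95% interval -0.23 to 0.12; edgeR, adjusted p = 0.977). Ldhc is at chr7:46861203-46878142 on the plus strand. It gave 3828, 3953 and 4135 CPM in the WT libraries, against 4134, 3874 and 4403 in the KO libraries. KO 3 was highest and WT 1 lowest, with overlap between the groups and a log2 fold change of 0.06 (95% interval -0.07 to 0.18; edgeR, adjusted p = 0.967). Without KO 3 it was 0.01.

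**Figure D4:**
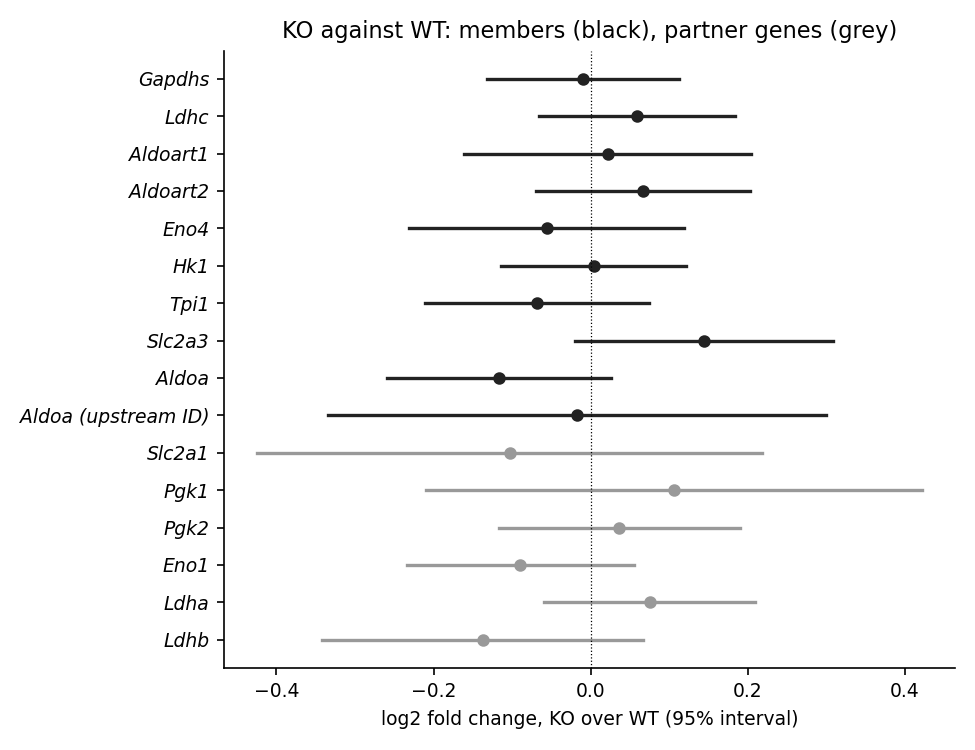
Points are log2 fold changes of KO over WT and lines their 95% intervals from the edgeR fit, with members in black and partner genes in grey; a dotted line marks 0. The members lie between -0.12 for Aldoa and 0.14 for Slc2a3, and each interval includes 0.

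Libraries did not shift these genes as 1 block. KO 3 held the highest Ldhc and Slc2a3 values and the lowest of Tpi1, Eno4, Hk1 and Aldoa. Relative to the WT mean, it lay at 0.15 for Ldhc and 0.26 for Slc2a3 on the log2 scale, and at -0.13 for Tpi1 and -0.11 for Eno4. The 5 germ-cell isoenzymes together (Gapdhs, Ldhc, Aldoart1, Aldoart2, Eno4) summed to 6036 ± 80.4 CPM over the WT and 6208 ± 236 over the KO libraries (SD, n = 3), most of it Ldhc. A two-sided exact permutation test of these sums gave p = 0.4. Markers of macrophages lay below 0 in log2 fold change for 8 of 8 genes (sums of 75.3 to 100.04 CPM in WT and 57.9 to 81.1 in KO), and those of Leydig cells also for 8 of 8, against 9792 of all 19320 tested genes. The Leydig cell sums overlapped, with 264 to 927 CPM in WT and 296 to 687 in KO. Of the Sertoli cell markers 6 of 9 lay below 0, with sums of 1859 to 2120 CPM in WT and 1768 to 1860 in KO. Below 0 were also 6 of 9 spermatogonia, 3 of 4 peritubular myoid and 2 of 2 blood markers tested. Above 0 were 7 of 10 spermatocyte, 6 of 9 round spermatid, 6 of 9 elongating spermatid and 3 of 5 endothelial markers. Markers of a cell type can move together in a library, so their signs are not independent. An unadjusted p under 0.05 in edgeR was reached by 4 macrophage, 1 Leydig cell and 3 Sertoli cell markers, against 4.63% of all tested genes. It was also reached by 2 spermatogonia, 1 peritubular myoid, 2 endothelial and 1 blood markers, and by 0 spermatocyte or spermatid markers. Of all these lists 0 genes were called after adjustment, and their part in the values of glycolytic genes was not tested.

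The balance between germ-cell and general forms was also compared between genotypes, as the log2 ratio of counts in each library. In a two-sided exact permutation test, which cannot go below p = 0.1, none of the 6 steps passed (p = 0.2 to 1, adjusted over the 6 steps 0.6 to 1). The aldolase ratio was 1.38, 1.28 and 1.30 in WT and 1.37, 1.55 and 1.53 in KO, a difference in log2 ratio of 0.17 (exact permutation p = 0.2). Only KO 1 fell within the WT range. With Aldoart2 alone over Aldoa the difference was 0.18 and the groups did not overlap (exact permutation p = 0.1).

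The uptake ratio of Slc2a3 to Slc2a1 was 195, 174 and 183 in WT and 223, 185 and 252 in KO, a difference of 0.25 in log2 ratio (exact permutation p = 0.2). KO 2 lay within the WT range. Without KO 3 the difference was 0.14, and without WT 1 and KO 2 together it was 0.41. The lactate dehydrogenase ratio was the steadiest, at 3.04, 2.98 and 3.02 in WT and 2.90, 3.04 and 3.12 in KO, with a difference of 0.00050. For Eno4 over Eno1 the difference was 0.03, and for Pgk2 over Pgk1 it was -0.07. For Gapdhs over Gapdh it was -0.33, against an SD of 1.30 among WT libraries, and the few Gapdh reads give this ratio no precision.

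Of 30 further genes of glycolysis, from glucose transporters to lactate dehydrogenases and with the partner genes above among them, 24 were tested, and 0 were called higher and 0 lower in edgeR's test (adjusted p = 0.965 or more). Over all genes 0% were called higher and 0.00518% lower. The median log2 fold change was -0.06, with 7 genes above 0 and 17 below it. The smallest p belonged to Hk2, which encodes the hexokinase of insulin-responsive tissues. It gave 27.4, 31.5 and 29.1 CPM in the WT libraries, against 25.8, 27.0 and 25.4 in the KO libraries, groups that did not overlap, with a log2 fold change of -0.17 (95% interval -0.39 to 0.04). Of the genes that are no partner in a pair, Hk3, Ldhd and Pfkm came next by p, with log2 fold changes of 0.39, -0.22 and -0.08, the first 2 of them at low levels, a WT mean of 1.46 and 5.64 CPM. Among the partners of the pairs, Ldha had 0.08, Ldhb -0.14, Eno1 -0.09, Pgk1 0.11, Pgk2 0.04 and Slc2a1 -0.10, each with an interval that included 0.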

How the data were processed

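The deposited values are whole-number counts for each Ensembl gene in each library, made by the authors, per the file header. HISAT2 2.0.0 and mm10 are named in the submitters' processing notes. The sources used here do not give the counting tool, annotation release, strand setting or the treatment of reads with several matches. Libraries were made with an mRNA-seq kit, per the labels' protocols. Of the columns of libraries, 0 were left unmatched. Genes were kept with filterByExpr (minimum count 10, minimum total 15, smallest group 3). They were tested in edgeR 4.0.16 (R 4.3.3) with TMM factors, glmQLFit and glmQLFTest. The fit used all 6 libraries, no covariate and Benjamini-Hochberg adjustment at 0.05. It was also run on simulated counts, with the same spread for all genes and changes larger than any among the members. That run cannot show whether changes as small as those of the members would be found. Intervals are 95% intervals from moderated standard errors. The common biological coefficient of variation was 0.112. Within genotypes, pairs of libraries differed by more than sampling noise (lowest chi-square per degree of freedom 5.26). Shared stretches were exact matches on the transcript strand of GENCODE M21, whose gene coordinates are mm10.

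Alternatives were DESeq2 1.42.0, limma-voom (limma 3.58.1), DESeq2 size factors or library size alone, no filter or a filter on mean CPM (5), the replicate block, libraries left out, and other lengths and sums for the pairs. The members, gene lists, tests and alternatives were chosen with earlier results of these data known. The genes named are the target, the members, their partners and the 4 other glycolysis genes with the smallest p. Other transporter genes are named at the uptake step, and genes that overlap a member or share its stretches where this is described. Marker lists are given by sums.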

Additional observations from a re-analysis of the deposited data

How the results depend on the processing

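In no alternative was a member or another glycolysis gene called, including the 6 in which Gapdh was tested (no low-count filter, 4 with 1 library left out, and without WT 1 and KO 2 together). Over all genes 1 was called, against 50 with no low-count filter, 2 in DESeq2, 9 without WT 1 and KO 2 together and 1 to 3 with 1 library left out. Hk1 turned to -0.0084 with library size alone and to -0.0094 without WT 1 and KO 2, and Gapdhs to 0.0185 without that pair. With 1 library left out, log2 fold changes ran from -0.0333 to 0.0225 for Gapdhs, -0.0347 to 0.0779 for Aldoart1, -0.0123 to 0.0235 for Hk1, -0.10 to 0.10 for the upstream Aldoa identifier, -0.0199 to 0.22 for Pgk1 and -0.0388 to 0.0847 for Pgk2. Those of Slc2a3 (0.08 to 0.21), Aldoa (-0.15 to -0.09), Ldhc (0.01 to 0.11), Eno4 (-0.08 to -0.02), Tpi1 (-0.11 to -0.04), Aldoart2 (0.05 to 0.09), Hk3 (0.11 to 0.68) and Ldhd (-0.41 to -0.09) kept their sign.

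The difference in log2 ratio between genotypes ran with 1 library left out from -1.03 to 0.25 for Gapdhs over Gapdh (0.25 without WT 3), -0.0237 to 0.0294 for lactate dehydrogenase, -0.0200 to 0.0629 for enolase, -0.21 to 0.12 for phosphoglycerate kinase, 0.14 to 0.23 for aldolase and 0.14 to 0.37 for glucose uptake (0.14 without KO 3, 0.37 without KO 2), and was -0.0165 for Ldhc over Ldha alone. For levels, the log2 ratio per kilobase ran with 1 library left out from 12.85 to 13.36 for Gapdhs, 1.07 to 1.12 for aldolase, 2.526 to 2.545 for lactate dehydrogenase, -1.75 to -1.71 for enolase, 6.09 to 6.22 for phosphoglycerate kinase and 6.53 to 6.64 for glucose uptake. Without WT 1 and KO 2 together these were 12.92, 1.07, 2.53, -1.76, 6.005 and 6.64. Fewer libraries cannot reach 0.05 here, the smallest p being 0.0625 with 5 and 0.125 with 4. Aldoart1 alone over Aldoa was -1.25. Coding length and Gapdh with its look-alike genes were chosen after the data were seen; the planned use of RefSeq protein lengths was not run.

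The replicate block left 1 gene called and 0 members, and the difference in the aldolase log2 ratio within pairs was 0.17 (exact permutation p = 0.5). Deviations of libraries with the same number correlated at -0.244, -0.0229 and 0.142, so the numbers were not taken to pair libraries; of the 6 libraries only WT 3 and KO 3 correlated best with their own number, WT 3 by 0.142 against 0.1418 for KO 1. With 3 to 18 counts in a library, Gapdh is measured with little precision.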
